A study of Mus musculus with 12 samples.

Results

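Integrins are cell-surface receptors, each built of an α and a β subunit, that bind proteins of the extracellular matrix and link them to the actin or keratin cytoskeleton inside the cell. Laminins, cross-shaped trimers of an α, a β and a γ chain, are ligands of several integrins and the scaffold on which basement membranes assemble. In the gut they lie under the epithelium, and carcinoma cells make and bind them. The genes were taken by symbol from the deposited table, by the patterns of Itga, Itgb and laminin chain symbols, without use of any measured value. Described here are 35 of 42329 entries, of which 17 encode integrin α subunits, 8 integrin β subunits and 10 laminin chains. Itgax is not analysed here. They are described as 25 receptor genes against 10 ligand genes.

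The cells were MC38, a mouse colon adenocarcinoma line grown in culture. sgHcar1 cells carried a guide RNA against Hcar1, which encodes a G protein-coupled receptor for lactate, and sgControl cells carried a control guide. Both populations received 20 mM lactate for 24 hours, or PBS as vehicle. This gave 12 libraries in all, 3 in each of 4 groups. The groups were sgHcar1 with lactate, sgHcar1 with PBS, sgControl with lactate and sgControl with PBS. The labels name a single population per guide, so an effect of the guide and any other difference between these populations cannot be told apart.

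Values are FPKM as deposited, a unit of fragments scaled by the length of the gene model and by a factor for the library. The median-ratio factors of all libraries were equal (1.0095), as in values already scaled by median ratios rather than by plain library totals. No read counts are given, so the depth of a library in reads is unknown. A library's FPKM summed to between 310109 and 421984, and libraries of a group correlated at 0.9904 to 0.9923. Nothing in the labels ties the 3 libraries of a group to separate cultures, so the p-values reflect library spread only, which may be technical. Changes were fitted with limma on log2(FPKM + 1), a scale that understates the change of low genes, and all p-values are adjusted by the Benjamini-Hochberg method over the 13736 genes that reached 1 FPKM in 3 or more libraries. Hcar1 itself was listed at 0 in 11 libraries and at 0.0196 FPKM in sgHcar1 PBS replicate 1, so its level says nothing of the guide.

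Of the 35 genes, 18 were tested: 13 integrins (7 α, 6 β) and 5 laminin chains. Of these, 11 were at 1 FPKM or more in all 12 libraries. The other 7 (Itga2b, Itga7, Itga10, Itgb2, Itgb3, Itgb4 and Lamb3) passed only through the groups in which they were higher, so counts over the tested genes are a description and support nothing further.

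The transcripts of highest level were β subunits. Itgb1, whose protein pairs with the largest number of α subunits, averaged 164 ± 4.01 FPKM in sgHcar1 lactate libraries, 168 ± 3.52 in sgHcar1 PBS, 209 ± 1.98 in sgControl lactate and 219 ± 4 in sgControl PBS (SD, n = 3 each, as for all means below). Itgb7, a β subunit best known from lymphocytes, was next in sgControl cells in PBS and above Itgb1 in sgControl cells in lactate. Among α subunits, Itga3 and Itga6 (with Itga7 the laminin-binding branch) and Itga5 and Itgav (which bind the RGD motif of fibronectin and vitronectin) were the 4 at a group mean of 5 FPKM or more. Among laminins these were Lama5, Lamb1, Lamb2 and Lamc1. Summed over the 25 integrins the level was 353 ± 1.86 FPKM in sgHcar1 lactate, 341 ± 2.99 in sgHcar1 PBS, 678 ± 3.69 in sgControl lactate and 589 ± 6.48 in sgControl PBS. Summed over the 10 laminin chains described it was 176 ± 5.86 FPKM in sgHcar1 lactate, 148 ± 6.37 in sgHcar1 PBS, 165 ± 4.61 in sgControl lactate and 126 ± 3.76 in sgControl PBS. The receptor sum exceeded this ligand sum in every group, by more in sgControl cells.

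**Figure D1:**
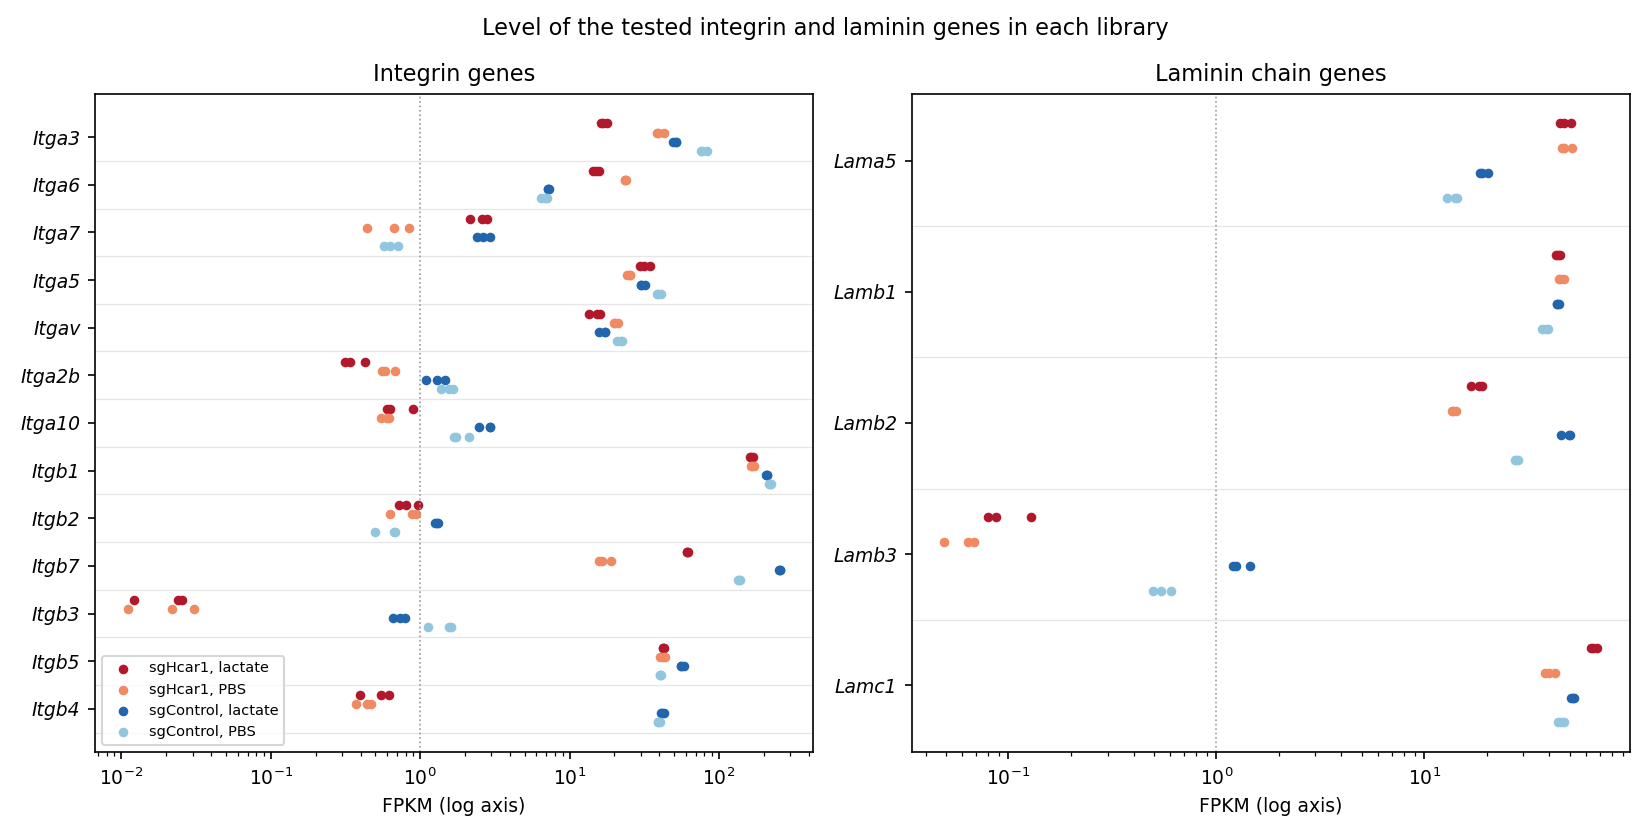
FPKM of the 18 tested integrin and laminin genes in each library, on a log axis, with colours for the 4 groups. Itgb4 and Itgb3 are the genes whose sgHcar1 points lie farthest under their sgControl points, and Lama5 and Itga6 lie above them.

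The remaining 17 genes were below the filter and were not tested. Itgam, the α subunit of the complement receptor of myeloid cells, and Lama1, the laminin α chain of early embryos, were listed at 0 in all 12 libraries. The highest single values were 0.78 FPKM for Lama3, 0.681 for Itgae, 0.274 for Lama4, 0.271 for Itga1, 0.231 for Lamc3 and 0.224 for Itgb8. Itgad (0.159), Itgb6 (0.151), Itga2 (0.137) and Itga11 (0.113) were lower still. Itga8 (0.0244), Itgal (0.0175), Itga4 (0.014), Lama2 (0.0104) and Itga9 (0.00932) reached at most these few hundredths of an FPKM. Several of these low genes nevertheless differed in where they were seen. Itgb6, the epithelial β subunit that pairs with Itgav, had 0.151, 0.0799 and 0.117 FPKM in sgHcar1 lactate libraries, against 0.00905, 0 and 0 in sgHcar1 PBS. In sgControl lactate it had 0, 0 and 0.00876 FPKM, against 0, 0.0179 and 0 in sgControl PBS. Lama4, a chain of endothelial and muscle basement membranes, was listed at 0 in all 6 sgHcar1 libraries, while sgControl libraries had 0.232, 0.204 and 0.274 FPKM in lactate, against 0.129, 0.168 and 0.149 in PBS. Lama3 had 0.78, 0.634 and 0.675 FPKM in sgHcar1 lactate libraries, against 0.287, 0.315 and 0.36 in sgHcar1 PBS. Its sgControl values were 0.207, 0.179 and 0.226 FPKM in lactate, against 0.145, 0.065 and 0.0367 in PBS. Itgae, the α subunit of intraepithelial lymphocytes, had 0.159, 0.126 and 0.217 FPKM in sgHcar1 lactate libraries, against 0.641, 0.519 and 0.681 in sgHcar1 PBS. In sgControl libraries it had 0.177, 0.12 and 0.138 FPKM in lactate, against 0.459, 0.478 and 0.399 in PBS. For Lama3 and Itgae the lactate and PBS libraries did not overlap in either population, in opposite directions. These genes were picked from the 17 after their values were seen. The share of all low genes that were apart in this way was not determined, so this is a description only.

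The first pair of comparisons asked how lactate changed these genes within each population. All 5 tested laminin chains rose with lactate in sgControl cells, and 2 of them (Lamb2 and Lamc1) rose in sgHcar1 cells while none fell on the deposited scale. Among the 13 tested integrins, 3 rose and 4 fell in sgHcar1 cells, and 5 rose and 5 fell in sgControl cells. Lamb3 and Itgb2 had passed the filter only through sgControl lactate, Itgb3 only through sgControl PBS and Itga7 only through the lactate groups, so the filter favoured their directions. Together 9 of 18 genes passed an adjusted p of 0.05 in sgHcar1 cells (50%, 5 higher and 4 lower), where 72.2% of all genes tested did, 36.8% higher and 35.4% lower. In sgControl cells 15 of 18 passed (83.3%, 10 higher and 5 lower), where 65.7% of all genes did, 33.9% higher and 31.9% lower. On the fitted scale a change of at least 2-fold was called for 3 of them in sgHcar1 cells (15% of all genes) and 1, Itga7, in sgControl cells (7.21%). The median log2 change of the laminin chains was 0.05 in sgHcar1 cells and 0.46 in sgControl cells, that of the integrins 0.02 and 0.08, and that of all genes 0.00 in both.

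These counts depend on how libraries are put on a common scale. The deposited values already had equal median ratios across libraries. Rescaling each library to the same FPKM sum shifted the median change of all genes by -0.10 for lactate in sgHcar1 cells, by -0.18 for the difference between the lactate effects, by -0.16 and -0.35 for sgHcar1 against sgControl in PBS and in lactate, and by 0.02 for lactate in sgControl cells. Under that scaling 20 of the genes were tested, and 15 were called for lactate in sgHcar1 cells, 6 higher and 9 lower. Of all 16366 genes then tested, 65.2% were called. Lama5 (-0.20), Lamb1 (-0.23), Itgb1 (-0.22) and Itgb5 (-0.17) then passed as lower there, so that laminin chains stood on both sides. In sgControl cells Itga6 then passed as higher (0.13) and Itgb1 no longer passed (-0.02). The difference then passed for Itgav (-0.29), Itga10 (-0.51) and Itgb1 (-0.20). Against sgControl cells, Itgav (-0.27) and Itgb5 (-0.12) then passed as lower in PBS and Itga7 (-0.44), Itga5 (-0.35) and Lamb1 (-0.40) in lactate. Lamb1 in PBS (0.07) and Lamc1 in lactate (-0.08) no longer passed.

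Lamc1 (chr1:153218922-153332786 on GRCm38, minus strand), the γ chain of most laminins, had 67.9, 63.4 and 64.8 FPKM in sgHcar1 lactate libraries, against 39.8, 38.2 and 42.5 in sgHcar1 PBS. In sgControl cells it had 52.7, 50.8 and 52.1 FPKM in lactate, against 47, 44 and 45.7 in PBS. The treatments did not overlap in either population, with a log2 change of 0.69 ± 0.04 (SE) in sgHcar1 cells (limma, adjusted p = 4.6e-08) and a smaller one of 0.18 ± 0.04 in sgControl cells (0.00239).

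Of the β chains, Lamb2 rose in both populations. This chain is prominent in kidney glomeruli and at neuromuscular junctions. It had 18.9, 16.7 and 18.3 FPKM in sgHcar1 lactate libraries, against 13.7, 13.6 and 14.2 in sgHcar1 PBS, and 50.3, 45.4 and 49.6 FPKM in sgControl lactate libraries, against 27.5, 27.3 and 28.2 in sgControl PBS. The log2 change was 0.36 ± 0.05 in sgHcar1 cells (limma, adjusted p = 4.3e-05) and 0.78 ± 0.05 in sgControl cells (9.46e-08), with no overlap in either. Lamb1, the widespread β chain, averaged 44 ± 0.974 FPKM in sgHcar1 lactate and 45.6 ± 1.08 in sgHcar1 PBS, where the libraries overlapped (log2 change -0.05, 95% interval -0.12 to 0.02). In sgControl cells it averaged 43.9 ± 0.458 FPKM in lactate and 38.3 ± 1.35 in PBS, a rise of 0.19 ± 0.03 on the log2 scale (limma, adjusted p = 0.00023). Lamb3 was low in sgHcar1 cells, at 0.0985 ± 0.0265 FPKM in lactate and 0.0604 ± 0.00992 in PBS, and in sgControl cells it was at 1.3 ± 0.136 FPKM in lactate and 0.547 ± 0.0559 in PBS (0.57 ± 0.07, adjusted p = 2.01e-05).

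Lama5, the α chain of most adult epithelial and vascular basement membranes, supplied nearly all α chain transcript, between 97.4% and 99.4% of the summed FPKM of the 5 α chains in every library. It had 50.6, 45.2 and 46.9 FPKM in sgHcar1 lactate libraries, against 46.8, 46 and 51.2 in sgHcar1 PBS, and 20.3, 18.5 and 19 FPKM in sgControl lactate libraries, against 14.3, 12.9 and 14.1 in sgControl PBS. The treatments overlapped in sgHcar1 cells (log2 change -0.01, 95% interval -0.14 to 0.11) and were apart in sgControl cells (0.46 ± 0.06, limma adjusted p = 3.23e-05). Summed α chain transcript was 48.3 ± 2.82 FPKM in sgHcar1 lactate, 48.3 ± 2.81 in sgHcar1 PBS, 19.7 ± 0.962 in sgControl lactate and 14 ± 0.757 in sgControl PBS. Summed β chain transcript was 62.1 ± 0.866 FPKM in sgHcar1 lactate, 59.5 ± 1.4 in sgHcar1 PBS, 93.6 ± 2.75 in sgControl lactate and 66.6 ± 1.52 in sgControl PBS. The β sum was above the α sum in every group, by more in sgControl cells.

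**Figure D2:**
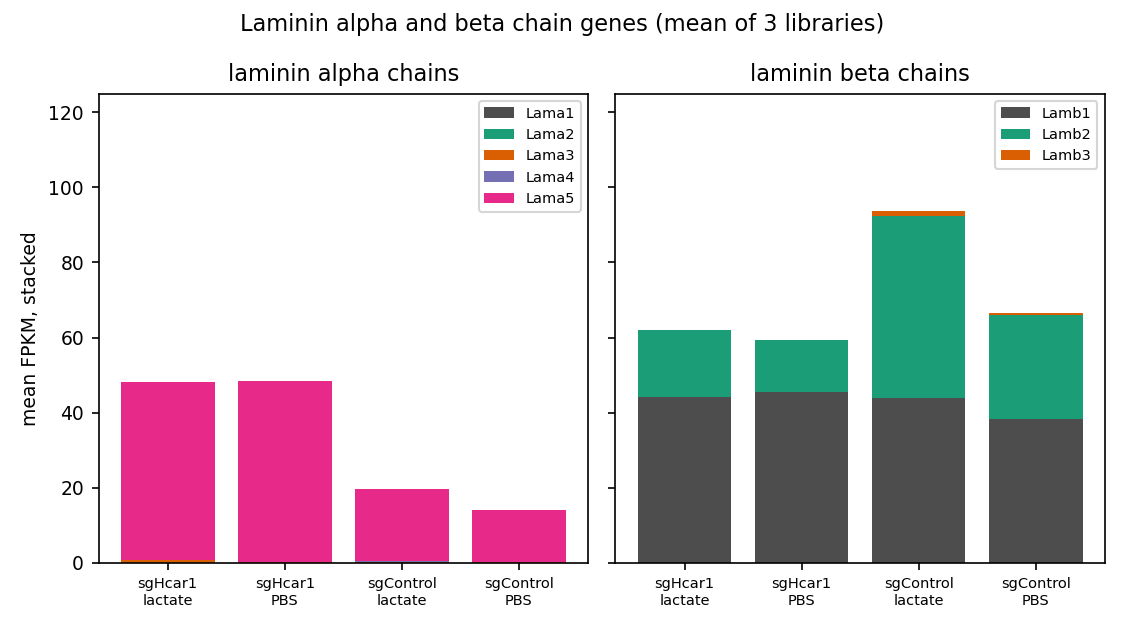
Mean FPKM of the laminin α and β chain genes in each group (3 libraries each), stacked by gene. Lama5 is taller in both sgHcar1 groups, and Lamb2 is taller in sgControl cells in lactate than in the other groups.

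Of the β subunits, Itgb7 changed most with lactate in both populations on the log2(FPKM + 1) scale. As a ratio of mean FPKM, its change in sgControl cells (1.88-fold) was below those of the low genes Itgb2 (2.09-fold higher) and Itgb3 (1.96-fold lower). Itgb7 had 61.4, 61.2 and 62 FPKM in sgHcar1 lactate libraries, against 16.6, 15.8 and 19 in sgHcar1 PBS. In sgControl libraries it had 257, 252 and 258 FPKM in lactate, against 138, 134 and 136 in PBS. All lactate libraries were above the PBS libraries of their population, with a log2 change of 1.79 ± 0.05 in sgHcar1 cells (limma, adjusted p = 1.15e-10) and 0.91 ± 0.05 in sgControl cells (4.88e-08). The known α partners of Itgb7 are Itga4, which lets lymphocytes home to the gut, and Itgae. Neither reached the filter, Itga4 was at 0 in 10 libraries, and the highest values of both are given above. The defining leukocyte markers were near or at 0 as well. Ptprc reached at most 0.0063 FPKM, Cd3e and Adgre1 were at 0 in all libraries, and the list's summed level of 8.08 to 21 FPKM was carried by Cd14 and Cd68.

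Itgb5, a vitronectin-binding partner of Itgav, averaged 42.7 ± 0.361 FPKM in sgHcar1 lactate and 42.1 ± 1.37 in sgHcar1 PBS, where libraries overlapped (log2 change 0.02, 95% interval -0.05 to 0.08, and -0.17 after rescaling to equal sums). In sgControl cells it had 58.4, 55.7 and 55.8 FPKM in lactate, against 40.5, 40.9 and 40.3 in PBS, a rise of 0.47 ± 0.03 (limma, adjusted p = 7.97e-08). Itgb1 differed little between treatments. Its change was -0.03 in sgHcar1 cells, where libraries overlapped, and -0.07 ± 0.03 in sgControl cells, where the limma call (adjusted p = 0.0456) was lost without sgControl lactate replicate 1, 2 or 3 or sgControl PBS replicate 1 or 2. Itgb4, the β subunit of hemidesmosomes, did not pass in either population. The leukocyte subunit Itgb2 was at 0.832 ± 0.132 FPKM in sgHcar1 lactate and 0.814 ± 0.162 in sgHcar1 PBS, and at 1.29 ± 0.0215 in sgControl lactate and 0.617 ± 0.0998 in sgControl PBS. It rose in sgControl cells by 0.50 ± 0.08 (limma, adjusted p = 0.000287). Itgb3, which pairs with Itgav and, in platelets, with Itga2b, had 0.0121, 0.0241 and 0.0256 FPKM in sgHcar1 lactate libraries, against 0.0218, 0.011 and 0.0307 in sgHcar1 PBS. In sgControl libraries it had 0.735, 0.794 and 0.654 FPKM in lactate, against 1.13, 1.55 and 1.6 in PBS. There it fell by 0.49 ± 0.08 on the log2 scale (limma, adjusted p = 0.000317).

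The α subunits as a group summed to 83 ± 2.01 FPKM in sgHcar1 lactate and 112 ± 2.83 in sgHcar1 PBS, and to 113 ± 0.715 in sgControl lactate and 152 ± 5.37 in sgControl PBS. The decline lay mainly in Itga3, which with Itgb1 forms a receptor for laminins that contain Lama5 or Lama3. Itga3 had 17.9, 16.9 and 16.3 FPKM in sgHcar1 lactate libraries, against 38.8, 38.3 and 43 in sgHcar1 PBS, and 51.8, 49.4 and 51.9 FPKM in sgControl lactate libraries, against 83.3, 76 and 77.2 in sgControl PBS. The libraries were apart in both populations. Itga3 fell by 1.19 on the log2 scale in sgHcar1 cells (SE 0.05, limma adjusted p = 3.64e-09) and by 0.62 in sgControl cells (SE 0.05, 1.4e-06). Itga6, the other laminin-binding subunit at a high level and the partner of Itgb4 in hemidesmosomes, had 15.1, 15.8 and 14.3 FPKM in sgHcar1 lactate libraries, against 23.5, 23.7 and 23.3 in sgHcar1 PBS. It fell there by 0.61 (SE 0.04, limma adjusted p = 7.9e-08). In sgControl cells it had 7.33, 7.22 and 7.21 FPKM in lactate, against 7.08, 6.85 and 6.49 in PBS, a change of 0.08 that did not pass (95% interval -0.01 to 0.17).

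Itga7, the laminin-binding subunit of skeletal muscle, rose, at a low level. It had 2.79, 2.16 and 2.6 FPKM in sgHcar1 lactate libraries, against 0.673, 0.438 and 0.843 in sgHcar1 PBS, and 2.42, 2.63 and 2.93 FPKM in sgControl lactate libraries, against 0.632, 0.712 and 0.575 in sgControl PBS. The rise was 1.09 ± 0.10 in sgHcar1 cells and 1.16 ± 0.10 in sgControl cells (limma, adjusted p = 1.79e-06 and 1.67e-06), and no libraries overlapped. Itga7 was tested only because it reached 1 FPKM in the lactate groups, so this direction was favoured by the filter.

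Of the RGD-binding subunits, Itgav had 15.9, 15.3 and 13.6 FPKM in sgHcar1 lactate libraries, against 21.2, 19.8 and 20.1 in sgHcar1 PBS, and 17.2, 17.2 and 15.6 FPKM in sgControl lactate libraries, against 22.2, 22.4 and 20.9 in sgControl PBS. It fell by 0.43 (SE 0.06) in sgHcar1 cells and by 0.37 (SE 0.06) in sgControl cells (limma, adjusted p = 4.21e-05 and 0.000176). On the deposited scale Itga5, the fibronectin receptor subunit, was the one tested gene whose lactate effects passed with opposite signs. It had 31.7, 29.8 and 34.4 FPKM in sgHcar1 lactate libraries, against 24.2, 25.3 and 25.4 in sgHcar1 PBS, a rise of 0.34 ± 0.05 (limma, adjusted p = 6.69e-05). In sgControl cells it had 30.1, 32.1 and 30 FPKM in lactate, against 40.8, 38.4 and 39.3 in PBS, and fell by 0.35 (SE 0.05, adjusted p = 6.95e-05). After rescaling to equal sums, Lama5 (-0.20), Lamb1 (-0.23) and Itgb5 (-0.17) passed as lower in sgHcar1 cells. Their rises in sgControl cells kept their calls, so these genes then had opposite signs too. Itga2b, the platelet fibrinogen receptor subunit, fell in sgHcar1 cells by 0.24 (SE 0.08, limma adjusted p = 0.0155). It averaged 0.361 ± 0.0608 FPKM there in lactate and 0.608 ± 0.0682 in PBS, and the call was lost without sgHcar1 lactate replicate 2 or sgHcar1 PBS replicate 1 (highest adjusted p 0.0602). Itga10, a collagen-binding subunit of cartilage, rose in sgControl cells, with 2.78 ± 0.270 FPKM in lactate and 1.85 ± 0.232 in PBS (0.41 ± 0.09, limma adjusted p = 0.00171).

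**Figure D3:**
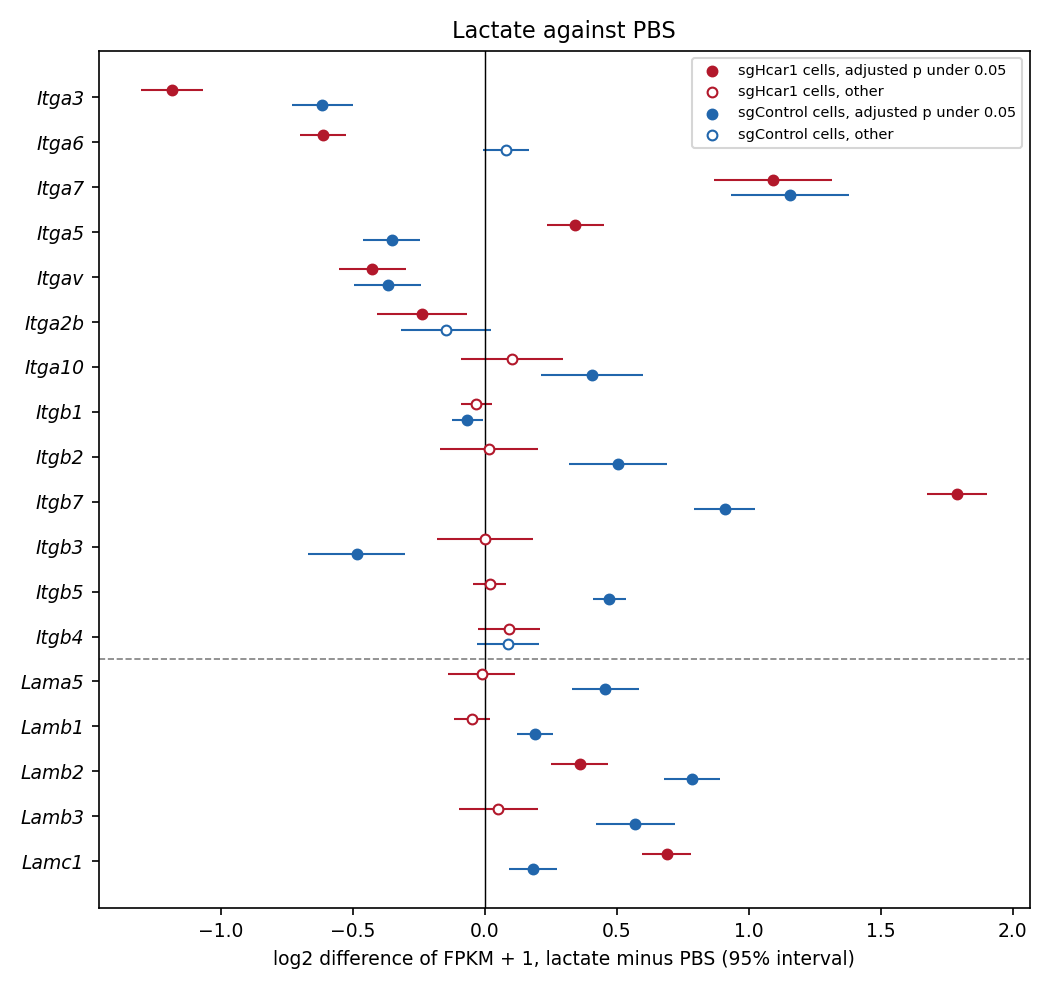
Log2 change of FPKM + 1 with lactate against PBS for the 18 tested genes, in sgHcar1 and sgControl cells, with 95% intervals from limma and filled symbols for an adjusted p under 0.05. Lamc1, Lamb2, Itgb7 and Itga7 are right of 0 and Itga3 and Itgav left of 0 in both populations, and Itga5 is on opposite sides.

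Across the populations, 4 of these genes rose in both (Itga7, Itgb7, Lamb2 and Lamc1) and 2 fell in both (Itga3 and Itgav). The share of all genes that did so was not determined, so these counts are a description only. Itga7 was also favoured by the filter. The bases upstream of the starts of the genes named are shown for those 4 with a RefSeq promoter entry, because they moved the same way in both populations. Each sequence is the 250 bases before the RefSeq transcription start on GRCm38.p6, in lower case, with each GGGCGG (the GC box bound by Sp proteins) in capitals where it lies on the strand shown. Itgb7 lies at chr15:102231936-102232185 and Itga3 at chr11:95076715-95076964, both on the minus strand, and Lamb2 at chr9:108479612-108479861 and Itgav at chr2:83724147-83724396, both on the plus strand.
Itgb7: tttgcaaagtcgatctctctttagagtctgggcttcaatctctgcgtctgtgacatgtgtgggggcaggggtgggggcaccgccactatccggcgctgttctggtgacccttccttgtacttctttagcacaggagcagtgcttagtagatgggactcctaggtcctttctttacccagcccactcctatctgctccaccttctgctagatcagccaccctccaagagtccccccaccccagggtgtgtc
Lamb2: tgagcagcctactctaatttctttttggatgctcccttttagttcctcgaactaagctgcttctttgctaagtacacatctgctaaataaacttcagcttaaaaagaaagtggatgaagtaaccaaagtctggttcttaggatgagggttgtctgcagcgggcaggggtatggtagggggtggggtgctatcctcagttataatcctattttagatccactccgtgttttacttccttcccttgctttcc
Itga3: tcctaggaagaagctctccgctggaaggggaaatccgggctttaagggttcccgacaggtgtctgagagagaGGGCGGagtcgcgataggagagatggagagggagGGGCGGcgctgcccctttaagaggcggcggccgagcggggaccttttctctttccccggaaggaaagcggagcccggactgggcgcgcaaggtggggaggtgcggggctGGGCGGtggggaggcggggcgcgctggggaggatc
Itgav: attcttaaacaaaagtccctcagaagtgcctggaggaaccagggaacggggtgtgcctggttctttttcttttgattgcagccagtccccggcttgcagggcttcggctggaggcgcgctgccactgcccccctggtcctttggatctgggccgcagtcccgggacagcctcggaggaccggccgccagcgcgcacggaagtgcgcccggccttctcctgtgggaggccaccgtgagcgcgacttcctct
GGGCGG or its complement CCGCCC was found 3 times in the Itga3 window and in none of the other 3. It was found in 9 of the 25 windows of the 22 integrin and laminin genes with an entry (36%), and in 32.7% of all 32851 promoter windows of that length. CpG dinucleotides numbered 5 in the Itgb7 window and 3 in that of Lamb2, and 22 in that of Itga3 and 18 in that of Itgav, a description of 4 windows. The median over all windows was 6 (quartiles 2 and 16). A second RefSeq start of Itga3 had 5. The AP-1 motif TGACTCA, searched on both strands, was in none of the 25 windows and in 4.46% of all windows.

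Whether lactate acted differently in the populations was tested as the difference between its effects, sgHcar1 minus sgControl. It passed for 12 of 18 genes (66.7%, 4 higher and 8 lower), where 59.1% of all genes did, 30.4% higher and 28.7% lower. No difference reached 2-fold, as 7.78% of all genes did. All 5 tested laminin chains were among the 12. The lactate effect was smaller in sgHcar1 cells for Lama5 (-0.47 ± 0.08), Lamb1 (-0.24 ± 0.04), Lamb2 (-0.43 ± 0.07) and Lamb3 (-0.52 ± 0.10), and larger for Lamc1 (0.51 ± 0.06), with limma adjusted p-values of 2.78e-05 to 0.000772. Among receptors the difference was 0.88 ± 0.07 for Itgb7 and 0.69 ± 0.07 for Itga5. It was -0.69 ± 0.06 for Itga6, -0.57 ± 0.07 for Itga3 and -0.45 ± 0.04 for Itgb5, with limma adjusted p-values of 1.81e-06 to 6.73e-05 for these 5. The lower genes Itgb2 (-0.49 ± 0.12) and Itgb3 (0.49 ± 0.12) passed as well. Itgb2 and Lamb3 had passed the filter only through sgControl lactate and Itgb3 only through sgControl PBS. In sgHcar1 cells Itgb3 (0.0206 FPKM in lactate, 0.0212 in PBS) and Lamb3 (0.0985 and 0.0604) left little room for change on the fitted scale. Their differences therefore mostly restate the sgControl change with its sign turned. For Itgav (-0.06, 95% interval -0.24 to 0.12), Itga7 (-0.06, -0.38 to 0.25) and Itgb1 (0.03, -0.05 to 0.12) no difference passed. For Itgb1 it was -0.20 after rescaling to equal sums.

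The other comparisons set sgHcar1 against sgControl cells within a treatment. Itga6 and Lama5 were higher in sgHcar1 cells in both treatments, and Itgb1, Itgb7, Itga3 and Lamb2 were lower. In PBS 14 of 18 genes passed (77.8%, 3 higher and 11 lower), where 76.7% of all genes tested did. In lactate 15 passed (83.3%, 3 higher and 12 lower), where 82.2% of all genes did. In both treatments these shares were near those of all genes. Over all genes, 38.2% were higher and 38.4% lower in PBS, and 41.3% were higher and 40.9% lower in lactate. A change of at least 2-fold was called for 5 of the 18 in PBS (20.2% of all genes) and 7 in lactate (27.4%). The median log2 change was -0.64 in PBS and -0.40 in lactate for the integrins and -0.18 and 0.01 for the laminin chains, beside 0.01 in each treatment for all genes. The share of all genes that were lower in both treatments was not determined. Among the 18, 9 were lower in both. Of these, Itgb3, Itgb4, Itga10, Itga2b and Lamb3 passed the filter only through sgControl groups, which favoured that direction.

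The widest gap was that of Itgb4, 1 gene of the hemidesmosome pair, which had passed the filter only through sgControl groups. Itgb4 (chr11:115974709-116008412 on GRCm38, plus strand), whose protein binds laminin together with that of Itga6 (chr2:71745616-71858416, plus strand), had 0.623, 0.547 and 0.398 FPKM in sgHcar1 lactate libraries, against 41.8, 41.1 and 42.9 in sgControl lactate, and 0.468, 0.371 and 0.439 FPKM in sgHcar1 PBS libraries, against 39.1, 38.9 and 40.4 in sgControl PBS. Mean FPKM in sgControl cells was 80.2 times that in sgHcar1 cells in lactate and 92.6 times that in PBS, and the log2 changes were -4.82 ± 0.05 and -4.83 ± 0.05 (limma, adjusted p = 2.52e-14 and 2.55e-14). Its α partner Itga6 was higher in sgHcar1 cells by 0.96 ± 0.04 in lactate and 1.65 ± 0.04 in PBS (limma, adjusted p = 1.05e-09 and 1.39e-11), that is 2.07-fold and 3.46-fold in mean FPKM. Subunits of the same receptor were thus apart in opposite directions, while Itgb1, the other partner of Itga6, was lower (-0.35 ± 0.03 in lactate and -0.38 ± 0.03 in PBS). Lama5 was higher by 1.26 ± 0.06 in lactate and 1.73 ± 0.06 in PBS (2.59e-09 and 2.32e-10).

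Itgb7 was lower in sgHcar1 cells. Its mean FPKM in sgControl cells was 4.15 times that in sgHcar1 cells in lactate and 7.91 times that in PBS, with log2 changes of -2.04 ± 0.05 and -2.92 ± 0.05 for sgHcar1 against sgControl (limma, adjusted p = 1.95e-11 and 1.25e-12). Itga3 followed with -1.53 ± 0.05 in lactate and -0.96 ± 0.05 in PBS (limma, adjusted p = 2.41e-10 and 1.69e-08). Of the laminin chains, Lamb2 (-1.38 ± 0.05 in lactate, -0.95 ± 0.05 in PBS) was lower in sgHcar1 cells (limma, adjusted p = 2.79e-10 and 8.53e-09). The low genes Itgb3 (-0.76 ± 0.08 in lactate, -1.24 ± 0.08 in PBS), Itga10 (-1.15 ± 0.09, -0.84 ± 0.09), Itga2b (-0.75 ± 0.08, -0.65 ± 0.08) and Lamb3 (-1.06 ± 0.07, -0.54 ± 0.07) were lower in both treatments too. These 4 were tested only because they reached 1 FPKM in sgControl libraries.

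For Lamc1 the direction differed between treatments. It was higher in sgHcar1 cells in lactate (0.33 ± 0.04, limma adjusted p = 1.86e-05, but -0.08 after rescaling to equal sums) and lower in PBS (-0.18 ± 0.04, 0.00224). Itga5 was lower in sgHcar1 cells in PBS (-0.64 ± 0.05, adjusted p = 2.87e-07). In lactate its groups overlapped (0.05, 95% interval -0.05 to 0.16, and -0.35 after rescaling). Itgb5 differed in lactate (-0.40 ± 0.03, adjusted p = 1.28e-07) and overlapped in PBS (0.05, 95% interval -0.01 to 0.12, and -0.12 after rescaling). Lamb1 was higher in sgHcar1 cells in PBS (0.24 ± 0.03, adjusted p = 2.16e-05) and overlapped in lactate (0.01, 95% interval -0.06 to 0.07, and -0.40 after rescaling). Itgav was lower in lactate (-0.15 ± 0.06, limma adjusted p = 0.0302), although the libraries overlapped. That call was lost without sgControl lactate replicate 1 or 2 or sgHcar1 lactate replicate 3 (highest adjusted p 0.127).

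**Figure D4:**
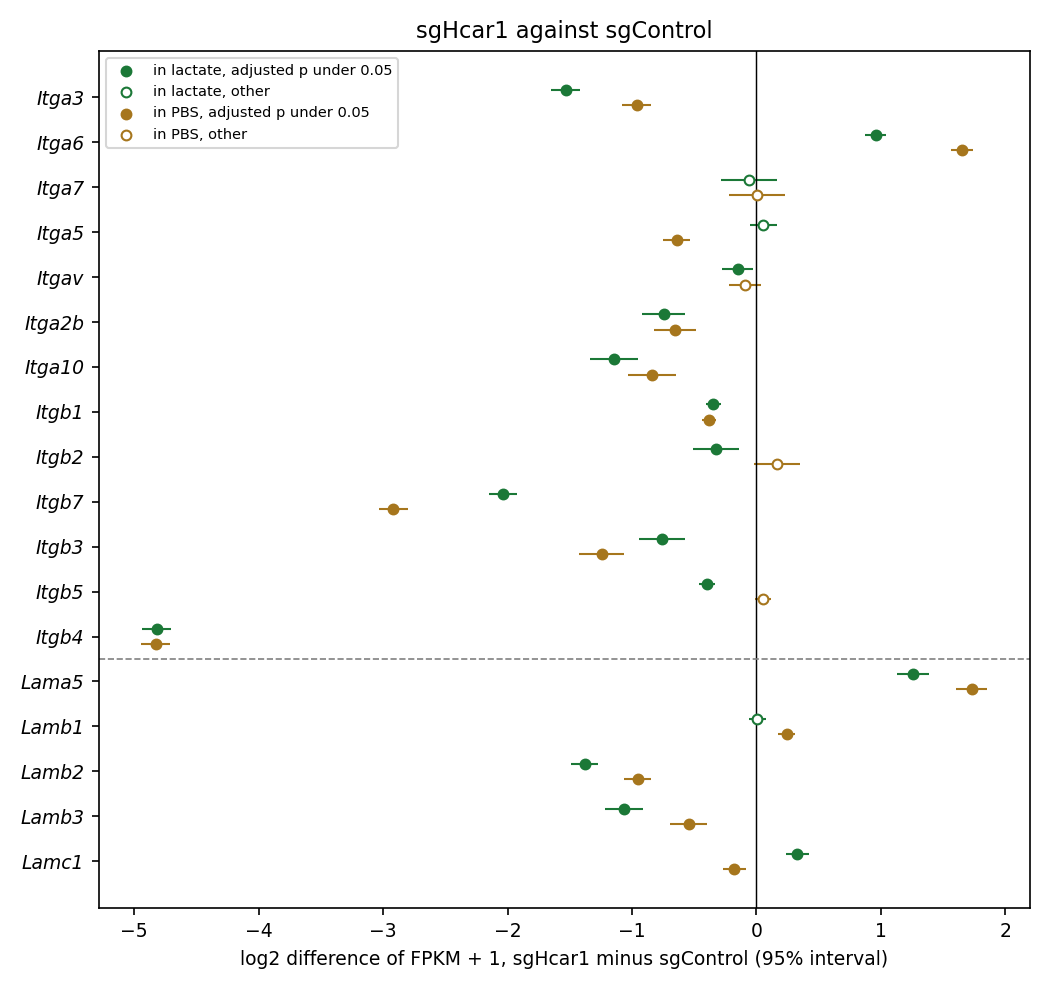
Log2 change of FPKM + 1 in sgHcar1 against sgControl cells for the 18 tested genes, in lactate and in PBS, with 95% intervals from limma and filled symbols for an adjusted p under 0.05. Itgb4 is farthest to the left, followed by Itgb7, and Lama5 and Itga6 are farthest to the right in both treatments.

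**Figure D5:**
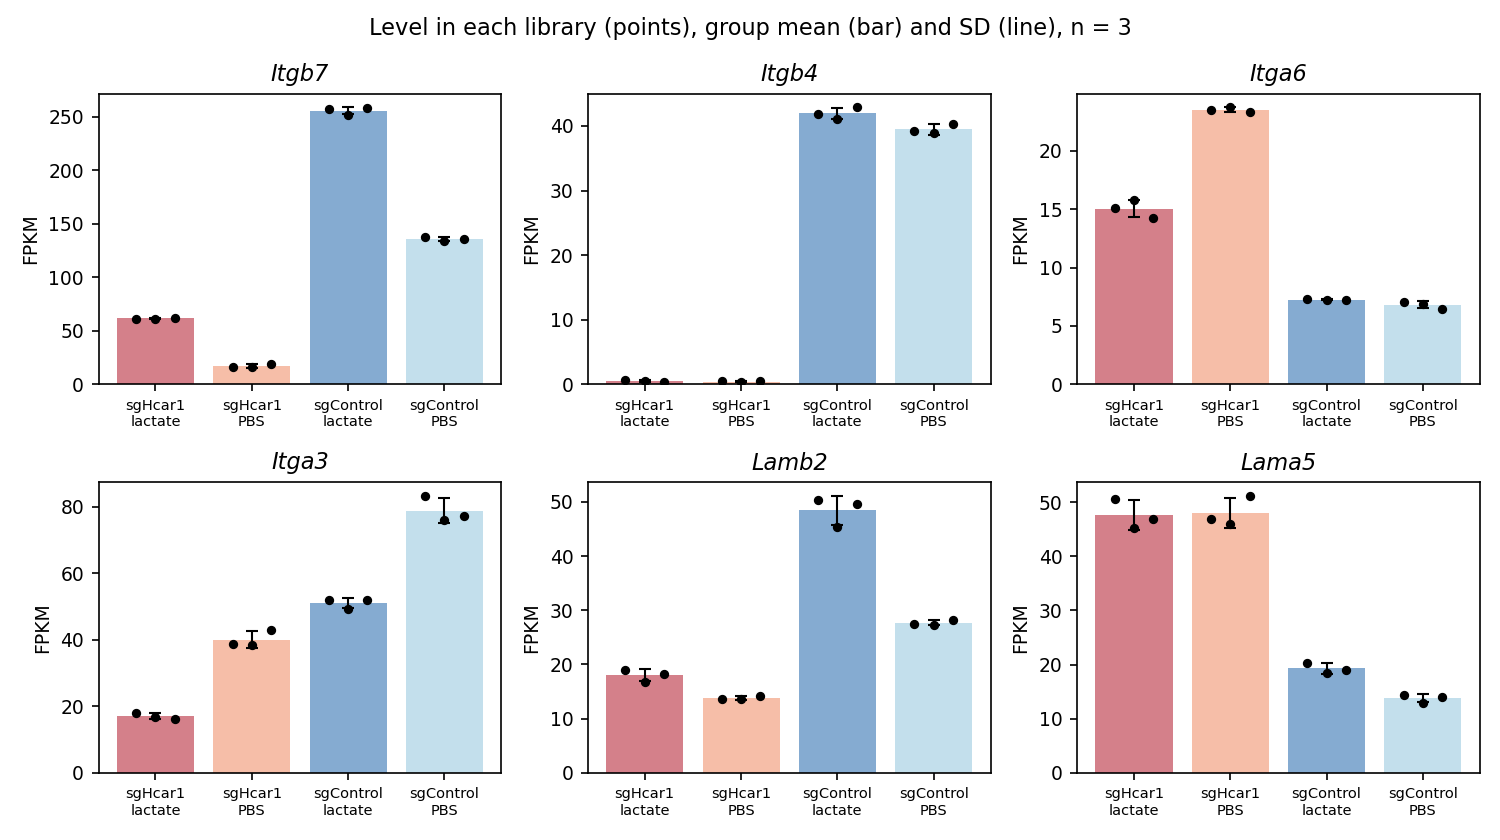
FPKM of Itgb7, Itgb4, Itga6, Itga3, Lamb2 and Lama5 in the 4 groups, with bars for the mean of 3 libraries, error bars for the SD and points for single libraries. Itgb4 is under 1 FPKM in both sgHcar1 groups, and the points of a group lie close together beside the gaps between groups.

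Cell type markers also differed between the populations. The 7 fibroblast markers summed to 17 to 19.4 FPKM in sgHcar1 lactate, 29.4 to 31.7 in sgHcar1 PBS, 96.4 to 101 in sgControl lactate and 97.7 to 101 in sgControl PBS, with Lum and Thy1 at 0 in all libraries. Col3a1 made up most of the sgControl sums, at 63.1 FPKM in lactate and 67.2 in PBS. Col1a1 went the other way, at 4.56 FPKM in sgHcar1 lactate and 0.645 in sgControl lactate, and 23.1 in sgHcar1 PBS and 1.01 in sgControl PBS. The 6 epithelial markers summed to 110 to 114 FPKM in sgHcar1 lactate, 44.8 to 48.5 in sgHcar1 PBS, 4.85 to 5.14 in sgControl lactate and 3.04 to 3.26 in sgControl PBS. Krt18 made up most of the sgHcar1 sums, and Epcam, a defining marker of colon epithelium, was at 0 in all libraries. Cdh1 and Krt19 were also at 0 in all sgHcar1 libraries, whereas in sgControl cells Cdh1 averaged 4.53 FPKM in lactate and 1.72 in PBS and Krt19 averaged 0.300 and 1.31. Krt8 and Cldn4, also of the epithelial list, reached at most 0.251 and 0.0927 FPKM in any library. Endothelial markers summed to at most 1.92 FPKM and platelet markers to at most 2.14. The part of these differences in the integrin and laminin results was not tested, and in bulk RNA fewer cells of a type and less RNA per cell cannot be told apart. Of the tested genes, Itgb4, Itgav, Itga10 and Itga7 share exonic bases with another gene in the GENCODE annotation of GRCm38 (130, 634, 204 and 9 bases). The deposited gene identifiers belong to another annotation, and the sources do not say that counting used strand.

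Genes around these receptors and ligands were followed in 4 lists. In the list of basement membrane partners, other laminin receptors and hemidesmosome proteins, 11 of 19 genes were tested. With lactate, 1 was higher and 8 lower in sgHcar1 cells, and 3 were higher and 4 lower in sgControl cells (median log2 change -0.66 and -0.04). These were 81.8% and 63.6% of the list, beside 72.2% and 65.7% of all genes called with lactate in sgHcar1 and sgControl cells, where 35.4% and 31.9% of all genes were lower. Dag1, the dystroglycan receptor for laminin, averaged 8.88 ± 0.481 FPKM in sgHcar1 lactate and 33.5 ± 0.317 in sgHcar1 PBS, and 29.9 ± 0.551 in sgControl lactate and 55.3 ± 1.72 in sgControl PBS. It fell in both populations, by 1.80 and 0.87 on the log2 scale (SE 0.04 each, limma adjusted p = 1.14e-11 and 4.88e-09). Plec and Dst, which tie Itgb4 to keratin filaments in hemidesmosomes, moved apart. Plec fell by 1.44 in sgHcar1 cells and 0.56 in sgControl cells (SE 0.05 each), while Dst rose by 1.01 ± 0.04 and 0.80 ± 0.04. Against sgControl cells in PBS, sgHcar1 cells had 5 genes of this list higher and 6 lower, so all 11 were called, beside 76.7% of all genes. Nid1, the nidogen that joins laminin to collagen IV, averaged 12.4 ± 0.524 FPKM in sgHcar1 PBS and 0.0516 ± 0.0121 in sgControl PBS. The log2 change was 3.68 ± 0.05 (limma, adjusted p = 9.24e-14). Nid1 passed the filter only through sgHcar1 libraries, which favoured this direction and its place among those called. Hspg2, the heparan sulfate proteoglycan perlecan, averaged 30.1 ± 2.97 FPKM in sgHcar1 PBS and 98.6 ± 6.7 in sgControl PBS (-1.68 ± 0.07, adjusted p = 1.38e-09).

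In the list of focal adhesion adaptors and kinases, 29 of 33 genes were tested. With lactate 10 were higher and 10 lower in sgHcar1 cells, and 10 were higher and 8 lower in sgControl cells. The shares called were 69% and 62.1%, beside 72.2% and 65.7% of all genes. Zyx, the zyxin of mature adhesions, rose in both, by 1.77 ± 0.05 and 0.98 ± 0.05 (limma, adjusted p = 8.27e-11 and 1.63e-08). In sgHcar1 against sgControl cells, 9 were higher and 18 lower in lactate and 8 were higher and 19 lower in PBS, with a median log2 change of -0.51 and -0.38. That was 93.1% of the list in each treatment, beside 82.2% of all genes in lactate (41.3% higher, 40.9% lower) and 76.7% in PBS (38.2% higher, 38.4% lower). Ptk2b, a kinase related to focal adhesion kinase, averaged 0.0845 ± 0.0359 FPKM in sgHcar1 lactate and 5.08 ± 0.214 in sgControl lactate. It passed the filter only through sgControl libraries, which favoured that direction.

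Of integrin ligands other than laminins, 18 of 30 genes were tested. In sgHcar1 cells 8 were higher and 6 lower with lactate, and in sgControl cells 7 were higher and 5 lower. These shares, 77.8% and 66.7%, were near the 72.2% and 65.7% of all genes. In PBS 9 were higher and 8 lower in sgHcar1 than in sgControl cells (94.4%, beside 76.7% of all genes). Fn1, the fibronectin bound by the Itga5 receptor, averaged 244 ± 3.66 FPKM in sgHcar1 lactate and 23.1 ± 1.58 in sgControl lactate, and 204 ± 10.4 in sgHcar1 PBS and 21.9 ± 1.26 in sgControl PBS. The log2 changes were 3.34 ± 0.06 in lactate and 3.17 ± 0.06 in PBS (limma, adjusted p = 6.16e-13 and 1.09e-12). Spp1, the RGD protein osteopontin, averaged 649 ± 30.3 FPKM in sgHcar1 PBS and 121 ± 6.16 in sgControl PBS (2.41 ± 0.05, limma adjusted p = 1.95e-12). In sgControl lactate it averaged 381 ± 14.4 FPKM, a rise of 1.64 ± 0.05 with lactate. Its lactate effect differed by -1.26 ± 0.06, sgHcar1 minus sgControl (limma, adjusted p = 7.89e-08).

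Of the co-receptors and trafficking genes, 15 of 17 were tested. With lactate 6 were higher and 6 lower in sgHcar1 cells, and 7 were higher and 6 lower in sgControl cells. The shares called were 80% and 86.7%, beside 72.2% and 65.7% of all genes. Slc3a2, whose protein binds β subunit tails and carries amino acid transporters, rose by 1.64 ± 0.03 in sgHcar1 cells and 2.60 ± 0.03 in sgControl cells (limma, adjusted p = 1.01e-11 and 1.22e-12). Bsg, the partner of monocarboxylate transporters that also associates with integrins, fell by 1.15 in sgHcar1 cells and 1.16 in sgControl cells (SE 0.04 each, limma adjusted p = 2.88e-10 and 5.32e-10). Plaur, the urokinase receptor, averaged 154 ± 6.3 FPKM in sgHcar1 lactate and 43.2 ± 0.206 in sgHcar1 PBS (1.81 ± 0.03, adjusted p = 7.07e-12).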

How the data were processed

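RNA from 12 MC38 libraries was sequenced by the submitters, from Illumina TruSeq libraries per the labels' protocols. The authors deposited 1 table of FPKM values, a unit named in the file headers. Tools named in the submitters' processing notes are featureCounts 1.5.0-p3 and HISAT2 2.0.5, and the build named there is GRCm38. The library factor behind FPKM and any strand setting are not given in the sources used here. The deposited values had equal median ratios across libraries. Columns were matched to groups by their letters, those of sgHcar1 by elimination.

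FPKM values were used as deposited and log2(FPKM + 1) was fitted with limma 3.58.1 in R 4.3.3, with 1 mean per group over 12 libraries, a variance trend and no replicate block. A gene was kept if 3 or more libraries reached 1 FPKM, which left 13736. Tests were two-sided, with Benjamini-Hochberg adjustment over all genes within each of 5 contrasts and a threshold of 0.05. The script was tested on simulated data. With no counts in the table, no count model was run.

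The genes and lists described were chosen with earlier results of these data known, and 1 gene that matched the symbol patterns is not reported here. Every other integrin or laminin gene past the filter could be named, with single-library values for up to 6 higher and 6 lower genes per contrast by size of change, and so could up to 4 genes per list and contrast. Single-library values of genes outside that rule were chosen after their values were seen. Same-numbered libraries did not deviate together (correlations of -0.0505 to 0.085 over 18 pairs), so the numbers were not taken to pair samples.

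Gene coordinates and exon overlaps came from the GENCODE annotation of GRCm38, and promoter windows came from RefSeq on GRCm38.p6, matched by symbol. The deposited gene identifiers carry the strain name C57BL6NJ, so the overlaps need not be those of the gene models that were counted. Alternatives were a pseudocount of 0.1, no filter, a filter on a mean of 5 FPKM, scaling by median ratios or to a sum of 1000000, a replicate block, a fit of the compared groups alone, and leaving out single libraries. Tables and figures were made with Python 3.11.15, pandas 2.3.3 and matplotlib 3.10.9.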

Additional observations from a re-analysis of the deposited data

Results flagged for a closer look

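The lactate effect differed between sgHcar1 and sgControl cells for 12 of the 18 tested genes, by limma's test of the difference itself (sgHcar1 minus sgControl, log2 scale). That is 66.7% of them, near the 59.1% of all genes that passed the same test. Among the laminin chains the difference was -0.4696 for Lama5, -0.2393 for Lamb1, -0.4263 for Lamb2, -0.5199 for Lamb3 and 0.506 for Lamc1. Among integrin α subunits it was -0.5702 for Itga3, 0.6948 for Itga5 and -0.6949 for Itga6. For the β subunits it was -0.4889 for Itgb2, 0.4858 for Itgb3, -0.454 for Itgb5 and 0.8813 for Itgb7. On the deposited scale Itga5 was the one gene among them that passed with opposite signs. Its effect was 0.34 in sgHcar1 cells and -0.35 in sgControl cells. After rescaling to equal sums, Lama5, Lamb1 and Itgb5 also passed with opposite signs. Lamc1 rose by 0.69 in sgHcar1 cells and by 0.18 in sgControl cells, whereas the other 4 laminin chains tested had the smaller effect in sgHcar1 cells. Itgb2, Itgb3 and Lamb3 had passed the filter only through sgControl libraries. Itgb3 and Lamb3 were near 0 in sgHcar1 cells, so their differences mostly restate the sgControl change. The causes of the differences were not tested.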

How the results depend on the processing

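Of 1203 single-gene values under an alternative, 1142 kept their direction and side of the threshold. Another 30 kept their direction but changed side, and 31 changed sign, 5 of them with a limma adjusted p under 0.05. Rescaling to equal sums moved the count for lactate in sgHcar1 cells to 15 of 20 tested (6 higher, 9 lower), beside 65.2% of all genes. This rescaling changed the sign of Itgb5 (-0.17) and Itgb2 (-0.10) for lactate in sgHcar1 cells, and of Itgb1 (-0.20) and Itgb4 (-0.078) for the difference. For sgHcar1 against sgControl it changed the sign of Itgb5 (-0.12) and Itga7 (-0.12) in PBS, and of Itga5 (-0.35), Lamb1 (-0.40) and Lamc1 (-0.078) in lactate. Rescaling also took the calls of Itgb1 for lactate in sgControl cells (-0.02), of Lamb1 in PBS (0.07) and of Lamc1 in lactate. A pseudocount of 0.1 gave -0.011 for Itga7 in PBS.

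Leaving out 1 library at a time gave 8 to 10 calls for lactate in sgHcar1 cells, 12 to 14 in sgControl cells, 10 to 13 for the difference, 12 to 15 for sgHcar1 against sgControl in lactate and 13 to 15 in PBS. From 16 to 18 of the genes were tested each time. In that order, 69.4% to 70.1%, 62% to 62.7%, 56.2% to 57.3%, 79.9% to 80.7% and 73.7% to 74.4% of all genes were called. Sign changes on leaving out a library were all of values that did not pass. For lactate in sgHcar1 cells these ranged from -0.060 to 0.064 for Itgb2, -0.0080 to 0.0059 for Itgb3, -0.0077 to 0.037 for Itgb5 and -0.057 to 0.033 for Lama5. For the difference they ranged from -0.16 to 0.018 for Itga7, -0.10 to 0.0029 for Itgav and -0.041 to 0.066 for Itgb4. For sgHcar1 against sgControl they ranged from -0.12 to 0.014 for Itga7 and -0.010 to 0.021 for Lamb1 in lactate, and from -0.079 to 0.10 for Itga7 in PBS. Calls appeared for Itga10 in the difference, for Itgb4 with lactate in sgHcar1 cells and for Itgb2 and Itgb5 in PBS. A fit with the compared groups alone called Itgb4 for lactate in sgControl cells (0.09, adjusted p = 0.0237) and did not call Itgav in lactate (adjusted p = 0.0746).

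With a replicate block the counts were 9 for lactate in sgHcar1 cells, 14 in sgControl cells, 12 for the difference, 15 for sgHcar1 against sgControl in lactate and 14 in PBS. All 18 genes were tested, and 72.1%, 65.1%, 58.6%, 82% and 76.3% of all genes were called in that order. The block took the call of Itgb1 for lactate in sgControl cells (limma, adjusted p = 0.052) and changed no other. Without a filter, 33 genes were tested and 12, 18, 16, 23 and 20 were called in that order. Of all genes, 43%, 36.6%, 33.1%, 52% and 47.4% were then called. The cause of these changes was not tested. Depth is unknown, which limits what can be said of genes under 1 FPKM.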
